A study of Mus musculus with 6 samples.

Results

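The 5 genes that encode the NF-κB subunits (*Rela*, *Relb*, *Rel*, *Nfkb1* and *Nfkb2*) and 5 genes listed as feedback inhibitors of inflammatory signaling (*Nfkbia*, *Nfkbiz*, *Tnfaip3*, *Socs3* and *Zfp36*; the product of *Nfkbiz* also acts as a coactivator) were examined in unstimulated bone marrow-derived macrophages (BMDMs) that lack ATP citrate lyase (*Acly*). These 10 genes were chosen by name, and all 10 were found among the 24562 gene symbols of the count table. All 10 had enough reads to be tested, along with 11460 other genes. No member differed between the genotypes at an adjusted p of 0.05 or less in edgeR, where 12.3% of all tested genes did. The fitted subunit changes lay between -9.96% (*Nfkb1*) and 8.59% (*Nfkb2*). Without AclyM-KO replicate 2, a library that stood apart, *Nfkb2* was 16.5% higher and passed (edgeR adjusted p = 0.0392). That fit, in which 18.5% of all tested genes passed, was the 1 of 16 alternative settings in which *Nfkb2* did. The share that *Nfkb2* took of all subunit transcripts was higher in each AclyM-KO library than in any control library (exact permutation p = 0.10, adjusted p = 0.667).

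RNA was sequenced from 3 control and 3 AclyM-KO libraries of BMDMs, all cultured with L929-conditioned medium and labelled as naive. In AclyM-KO mice, loxP-flanked *Acly* alleles (*Acly* fl/fl) are recombined by Cre under the *Lyz2* promoter (LysMcre), which is active in macrophages, monocytes and neutrophils. The labels call the control libraries WT, and the study describes Cre-negative *Acly* fl/fl littermates on the C57BL/6J background as controls for its bone marrow transplants, so whether the control BMDMs carried the floxed alleles is not stated for these libraries. The series text names female mice, whereas the study's reporting summary gives both sexes and an age of 8 to 14 weeks for the donors of bone marrow used in vitro. A legend that draws on these libraries describes them as technical replicates from pooled mice, so every p-value here measures the spread between such libraries and not that between mice. *Acly* itself, the check of the labels, was at 220.4, 233 and 236 CPM (counts scaled to a common library size) in control replicates 1, 2 and 3 and at 93.3, 98.9 and 98.3 CPM in AclyM-KO replicates 1, 2 and 3, and fell by 1.25 on the log2 scale (SE 0.0661, edgeR adjusted p = 5.58e-07).

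NF-κB is a family of dimeric transcription factors that wait in the cytosol, bound by inhibitors of the IκB family, until a receptor such as a Toll-like receptor (TLR) activates the IκB kinases. The kinases mark the inhibitor for destruction, the dimers enter the nucleus, and among the genes they switch on are their own inhibitors, which close a feedback loop. In macrophages this loop shapes the size and length of the cytokine response to lipopolysaccharide, while resting cells keep a low basal activity.

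Summed over all transcripts, 5 of the 6 libraries held from 19327459 to 23582992 counts, and AclyM-KO replicate 2 held 44507233, or 2.18 times the mean of the others. This deeper library also lay furthest from its group mean. Its root mean square deviation in log2 CPM was 0.211, against 0.180 and 0.168 for AclyM-KO replicates 1 and 3 and 0.148 to 0.155 in control libraries. Its chi-square per degree of freedom against its group mates was 22.04 and 23.5, against 3.25 to 8.55 for the other pairs of the same genotype, though this value grows with depth. It was the lowest of the 6 libraries in 6 of the 10 members and the highest in 1, whereas it was the lowest in 27% and the highest in 28.7% of all tested genes. Fold changes, shares and ratios of the members that changed sign, call or size by over 1.5 times without this library are given with and without it. Of the macrophage markers, all 8 were measured, their summed level was 10920 to 10997 CPM in control and 9582 to 10737 CPM in AclyM-KO libraries, and 3 of them (*Csf1r*, *Mertk* and *C1qa*) were lower in AclyM-KO. The 4 neutrophil markers that passed the filter on low counts summed, with the others, to 27.5 to 31.1 CPM in control and 28.7 to 30.4 CPM in AclyM-KO libraries, and dendritic cell, B cell, mast cell, stromal and erythroid markers summed to at most 1.57 CPM in any library. Of the T and NK cell markers, only *Cd4* was above the filter (57.8 to 66.2 CPM in control, 34.4 to 50.8 CPM in AclyM-KO), and *Cd3e* was at 0 counts in all 6 libraries. The part of these differences in the results on the members was not tested.

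Promoters of 4 members are printed because they hold the letters of the κB consensus, a motif of 10 bases that NF-κB dimers recognize. RefSeq (GRCm38.p6) gives promoter windows, each of 250 bases before and 50 bases from the transcript start on, for 7 of the members, 10 windows in all. The consensus, searched on both strands, was found in 6 of these windows, which belong to 4 members, and in 4.51% of all 32851 promoter windows of the same length. The sequences run 5′ to 3′ on the gene's strand, and the capitals mark each stretch that matches the consensus, with overlapping matches joined.
Nfkb2, chr19:46304487-46304786, plus strand: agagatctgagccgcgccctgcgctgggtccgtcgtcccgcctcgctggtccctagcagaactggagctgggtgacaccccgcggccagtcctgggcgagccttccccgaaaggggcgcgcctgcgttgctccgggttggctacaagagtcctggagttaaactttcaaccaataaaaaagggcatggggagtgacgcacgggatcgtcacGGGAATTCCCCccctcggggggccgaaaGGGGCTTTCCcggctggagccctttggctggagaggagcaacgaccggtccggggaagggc
Rel, chr11:23770920-23771219, minus strand: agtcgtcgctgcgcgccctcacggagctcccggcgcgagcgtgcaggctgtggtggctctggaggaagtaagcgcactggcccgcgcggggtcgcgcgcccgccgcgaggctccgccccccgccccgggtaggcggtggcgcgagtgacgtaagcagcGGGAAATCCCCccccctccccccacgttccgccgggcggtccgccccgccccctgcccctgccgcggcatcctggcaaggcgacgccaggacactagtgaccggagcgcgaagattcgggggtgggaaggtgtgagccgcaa
Nfkbia, chr12:55492598-55492897, minus strand: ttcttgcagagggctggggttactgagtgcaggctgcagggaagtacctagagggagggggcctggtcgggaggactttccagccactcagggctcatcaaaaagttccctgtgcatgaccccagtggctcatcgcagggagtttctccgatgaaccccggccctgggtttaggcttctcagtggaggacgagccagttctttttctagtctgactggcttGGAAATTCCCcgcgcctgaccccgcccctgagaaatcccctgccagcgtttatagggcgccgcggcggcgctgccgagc
Tnfaip3, chr10:19015361-19015660, minus strand: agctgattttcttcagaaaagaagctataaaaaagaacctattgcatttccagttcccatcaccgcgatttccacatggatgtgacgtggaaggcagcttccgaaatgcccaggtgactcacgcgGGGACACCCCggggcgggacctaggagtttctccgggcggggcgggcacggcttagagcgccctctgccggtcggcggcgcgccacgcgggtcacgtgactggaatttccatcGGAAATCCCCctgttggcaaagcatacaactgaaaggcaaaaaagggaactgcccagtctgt

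In the *Nfkb2* window, 2 stretches begin 39 and 11 bases before the start, and the first, GGGAATTCCCC, holds 3 overlapping matches on both strands. The other windows of *Nfkb2*, which begin at 46305445 and 46305680 on chromosome 19 and overlap each other, hold a further GGAATGTCCC and share 1 stretch, GGGACTTTCC. The *Rel* stretch, GGGAAATCCCC, begins 92 bases before the start, and the *Nfkbia* stretch, GGAAATTCCC, begins 29 bases before it. *Tnfaip3* has GGGACACCCC and GGAAATCCCC at 125 and 12 bases before the start of the window shown, and none in its other window. The windows of *Rela*, *Socs3* and *Zfp36* hold no match. The STAT motif TTCNNNGAA (8.3% of all promoters) is in the *Socs3* and *Zfp36* windows and in the *Nfkb2* window printed above, the AP-1 motif TGANTCA (7.81%) is in 1 window each of *Tnfaip3* and *Nfkb2*, and the serum response element, searched by its consensus (1.63%), is in the *Zfp36* window. The TATA box letters TATAAA (13.6%) are in the printed *Tnfaip3* window and, on the opposite strand, in that of *Nfkbia*. The cAMP response element TGACGTCA (1.79%) is in none of the 10 windows. None of these motifs shares its position with a κB stretch, and a match describes letters and no binding.

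Between the genotypes, no subunit gene passed the test. *Rela*, *Relb*, *Rel* and *Nfkb1* lay below control with log2 fold changes of -0.11 to -0.15, and *Nfkb2* lay above it at 0.12. By edgeR's quasi-likelihood test 0 of the 10 members passed, against 12.3% of all 11470 genes tested (6.7% higher and 5.65% lower in AclyM-KO). At an unadjusted p under 0.05, 1 member (*Nfkb1*) passed in edgeR, 0 in DESeq2 and 2 in limma-voom, and neither DESeq2 nor limma-voom called any member after adjustment. That cutoff is common in these data: *Nfkb1*, at an unadjusted edgeR p of 0.0466, ranked only 3041 by p among the 11470 genes tested. The 3 control and 3 AclyM-KO libraries did not overlap in 2 members, against 32.8% of all genes tested. Bulk RNA cannot tell fewer cells of a type from less RNA per cell.

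*Nfkb1* (NM_008689, chromosome 3, 135584655 to 135691969 in mm10) encodes the precursor from which the DNA-binding partner of *Rela* is cut. It was at 119.8, 123 and 113 CPM in the control libraries and at 109, 103 and 109 CPM in the AclyM-KO libraries. All 3 AclyM-KO libraries lay below the lowest control library. The log2 fold change was -0.15 (SE 0.0681, 95% confidence interval -0.30 to -0.0027), a change of -9.96% with an edgeR adjusted p of 0.176. *Rel* (NM_009044, chromosome 11, 23736847 to 23770969), whose product c-Rel is best known in lymphocytes and in the macrophage response to lipopolysaccharide, was at 24.9, 26.5 and 27.0 CPM in control and at 23.9, 24.0 and 22.6 CPM in AclyM-KO. Here too the groups did not overlap, by a gap of less than 1 CPM. Its log2 fold change was -0.15 (SE 0.0926, edgeR adjusted p = 0.334).

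*Rela* (NM_009045, chromosome 19, 5637442 to 5648134) encodes the main transactivating subunit of the canonical pathway. It was at 102, 96.4 and 97.9 CPM in control and at 101, 76.2 and 98.9 CPM in AclyM-KO replicates 1, 2 and 3. The deep library alone lay below the control range. The log2 fold change was -0.11 (SE 0.101, interval -0.33 to 0.11) with all libraries and 0.02 without AclyM-KO replicate 2. *Relb* (NM_009046, chromosome 7, 19606217 to 19629438), the transactivating subunit of the non-canonical pathway, was at 26.1, 29.1 and 27.8 CPM in control and at 28.7, 21.5 and 26.3 CPM in AclyM-KO. Again AclyM-KO replicate 2 was the lowest, the groups overlapped, and the log2 fold change went from -0.13 (SE 0.117) to -0.01 without that library.

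*Nfkb2* (NM_001177369, chromosome 19, 46300994 to 46312400), which encodes the precursor that holds *Relb* in the cytosol and is cut in the non-canonical pathway, was the one subunit above control. It was at 71.9, 63.4 and 60.9 CPM in control and at 76.7, 61.9 and 75.3 CPM in AclyM-KO. The AclyM-KO replicates 1 and 3 lay above the control range and replicate 2 lay within it. With all libraries the log2 fold change was 0.12 (SE 0.0986, interval -0.10 to 0.33, edgeR adjusted p = 0.482). Without AclyM-KO replicate 2 it was 0.22 (SE 0.0718, interval 0.07 to 0.37), 16.5% higher, with an edgeR adjusted p of 0.0392, the one call among the members, where 18.5% of the 11554 genes tested were called. In the other 15 of 16 alternative settings *Nfkb2* did not pass, and its log2 fold change was 0.19 without control replicate 1, 0.07 without control replicate 3, 0.06 without AclyM-KO replicate 1 and 0.08 without AclyM-KO replicate 3. Exons of *Nfkb2* overlap those of AC114539.1 and *Psd* on the opposite strand, and those of *Zfp36* overlap *Gm44710* in the same way. The counting used the tool's default settings, and the sources used here do not spell out which strand these count, so reads of these neighbors may be counted with the member.

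**Figure D1:**
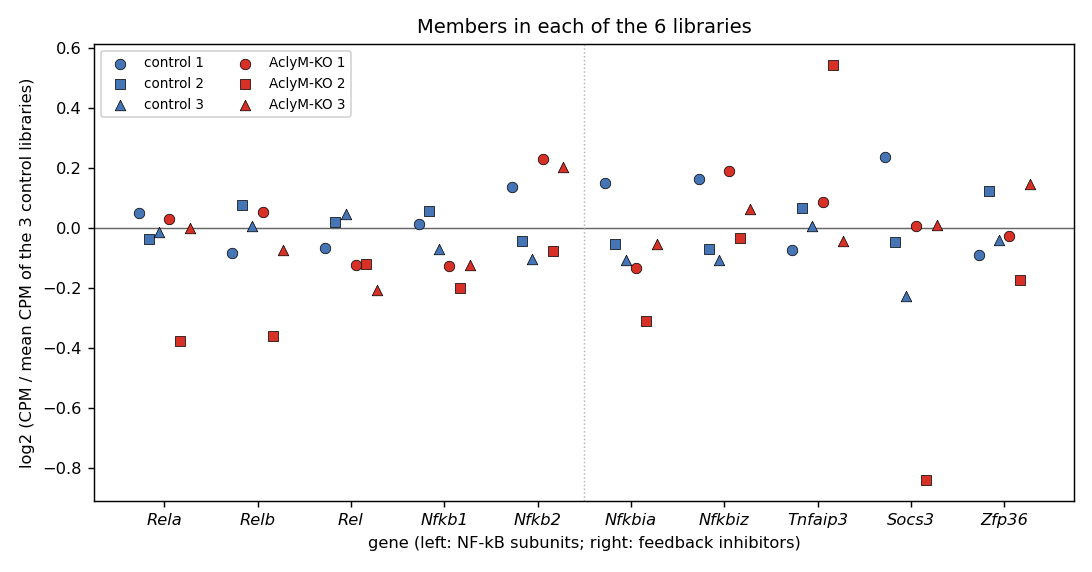
Level of each member in each of the 6 libraries (points, blue control and red AclyM-KO), as log2 of its CPM over the mean CPM of the 3 control libraries. AclyM-KO replicate 2 (red squares) lies apart from its group mates in *Rela*, *Relb*, *Nfkb2*, *Tnfaip3* and *Socs3*, while *Rel* and *Nfkb1* are the members whose groups do not overlap.

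Among the feedback inhibitors, 2 lay above control (*Nfkbiz* and *Tnfaip3*) and 3 below it (*Nfkbia*, *Socs3* and *Zfp36*), and the groups overlapped in all 5. The log2 fold changes ran from -0.28 for *Socs3* to 0.23 for *Tnfaip3*, with a median of -0.02, beside a median of 0.00026 over all tested genes. Of the members with a κB stretch in the printed windows, *Nfkb2* and *Tnfaip3* lay above control and *Rel* and *Nfkbia* below.

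*Nfkbia* (NM_010907, chromosome 12, 55489409 to 55492647) encodes IκBα, the inhibitor that is destroyed and then remade by NF-κB. It was at 49.7, 43.2 and 41.6 CPM in control and at 40.8, 36.1 and 43.2 CPM in AclyM-KO. AclyM-KO replicates 1 and 2 lay below the control range and replicate 3 within it. The log2 fold change was -0.17 (SE 0.0997, interval -0.39 to 0.05, edgeR adjusted p = 0.309) and -0.09 without AclyM-KO replicate 2. *Nfkbiz* (NM_030612, chromosome 16, 55811375 to 55838954), which encodes the nuclear protein IκBζ, a cofactor for a subset of NF-κB targets, was the member lowest per length. It was at 10.003, 8.52 and 8.30 CPM in control and at 10.2, 8.73 and 9.34 CPM in AclyM-KO, with a log2 fold change of 0.07 (SE 0.141), or 0.13 without AclyM-KO replicate 2. Its libraries of both genotypes were spread over nearly the same range.

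*Tnfaip3* (NM_009397, chromosome 10, 19000910 to 19015410) encodes A20, an enzyme that edits ubiquitin chains and shuts off signaling upstream of the IκB kinases. It was at 50.9, 56.1 and 53.8 CPM in control and at 56.9, 78.1 and 52.0 CPM in AclyM-KO. AclyM-KO replicate 2 was far above the other 5 libraries, which lay between 50.9 and 56.9 CPM. The log2 fold change was 0.23 (SE 0.131, interval -0.06 to 0.52, edgeR adjusted p = 0.289) with that library and 0.02 (SE 0.0734) without it.

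*Socs3* (NM_007707, chromosome 11, 117966079 to 117970336), the inhibitor of STAT3 signaling from the receptors of the IL-6 family, was the member with the fewest reads, 73 to 114 counts per library. It was at 9.09, 7.47 and 6.59 CPM in control and at 7.75, 4.31 and 7.76 CPM in AclyM-KO. AclyM-KO replicate 2 again was the lowest, and the other AclyM-KO libraries lay within the control range. The log2 fold change was -0.28 (SE 0.233) and 0.01 without that library, and its interval, -42.1% to 17.4%, was the widest of the members. *Zfp36* (NM_011756, chromosome 7, 28376784 to 28379228) encodes tristetraprolin, which binds AU-rich cytokine mRNAs and directs their decay. It was at 111, 129 and 115 CPM in control and at 116, 105 and 131 CPM in AclyM-KO. Its log2 fold change of -0.02 (SE 0.0913, interval -14.0% to 13.5%) turned to 0.06 without AclyM-KO replicate 2, and to 0.02 when libraries were scaled by total counts only.

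**Figure D2:**
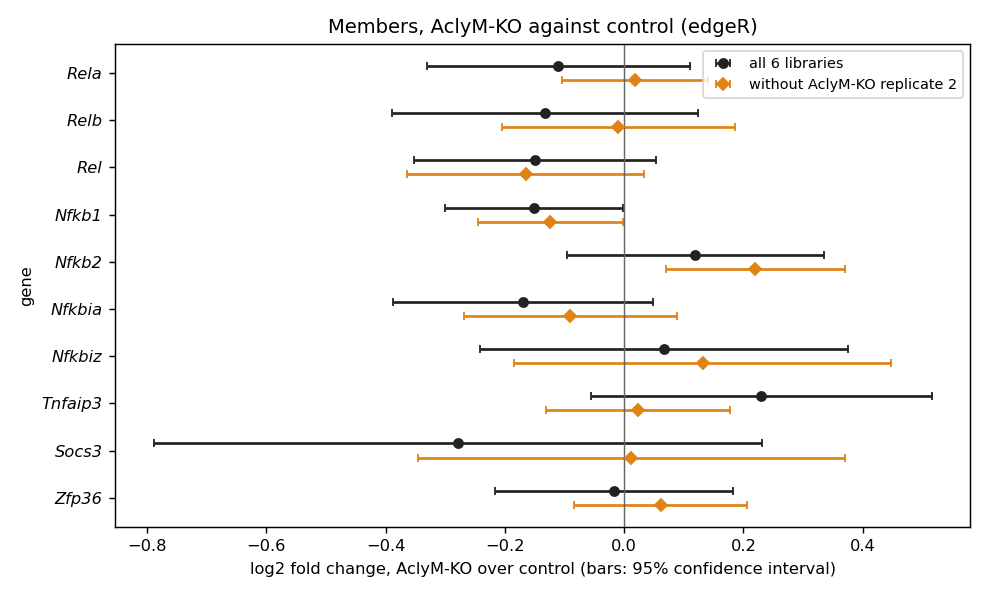
Log2 fold change of each member, AclyM-KO over control, from edgeR (points) with its 95% confidence interval (bars), for all 6 libraries (black circles) and without AclyM-KO replicate 2 (orange diamonds). Of the black intervals, only that of *Nfkb1* (-0.30 to -0.0027) lies below 0, and without the deep library that of *Nfkb1* stays below 0 and that of *Nfkb2* (0.07 to 0.37) lies above it.

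Per length, *Zfp36* was the highest of the members in control libraries, at 42.3 ± 3.34 RPKM (reads per kilobase of transcript, scaled to library size; mean ± SD, n = 3). *Rela* (36.4 ± 1.15), *Nfkb1* (28.8 ± 1.26), *Nfkbia* (28.4 ± 2.74) and *Nfkb2* (21.95 ± 1.94 RPKM) followed. *Relb* (12.5 ± 0.691 RPKM) and *Tnfaip3* (12.1 ± 0.589 RPKM) formed a middle group, and *Rel* (3.50 ± 0.143), *Socs3* (3.02 ± 0.498) and *Nfkbiz* (2.17 ± 0.225 RPKM) were the lowest. Neighbors in this order whose control ranges overlapped were *Nfkb1* with *Nfkbia*, *Relb* with *Tnfaip3*, and *Rel* with *Socs3*. In AclyM-KO libraries the order of the means was the same except that *Tnfaip3* (14.1 ± 3.14 RPKM) came before *Relb* (11.5 ± 1.65 RPKM). Only AclyM-KO replicate 2 showed this exchange, with *Tnfaip3* at 17.7 and *Relb* at 9.75 RPKM. In AclyM-KO replicates 1 and 3 *Relb* (13.00 and 11.89 RPKM) was above *Tnfaip3* (12.87 and 11.76 RPKM). *Rela* was thus higher per length than its inhibitor *Nfkbia* in every control library, and *Rel* was the lowest of the subunits. The lengths are those of 1 matched transcript model per gene, and that of *Zfp36*, 2790 bases, exceeds the span of 2445 bases that RefSeq gives the gene, so its RPKM is understated if the transcript is shorter.

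**Figure D3:**
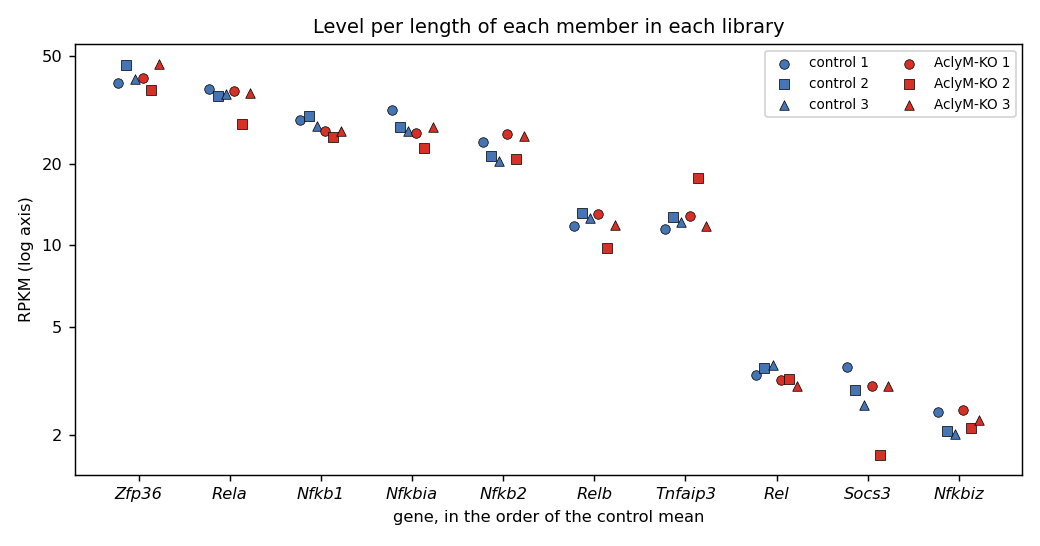
RPKM of each member in each library on a log axis, genes in the order of the control mean (blue control, red AclyM-KO). The members fall into 5 genes above 20 RPKM, *Relb* and *Tnfaip3* between 9.75 and 17.7 RPKM, and *Rel*, *Socs3* and *Nfkbiz* below 4 RPKM, in both genotypes.

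The make-up of the subunit pool was compared as each subunit's share of the summed RPKM of the 5 subunits, which cancels the depth of a library. *Nfkb2* made up 22.8%, 20.6% and 20.4% of the pool in control replicates 1, 2 and 3 and 24.4%, 23.9% and 24.5% in AclyM-KO replicates 1, 2 and 3. All 3 AclyM-KO libraries, the deep library included, lay above all control libraries. In the deep library the *Nfkb2* level itself lay within the control range, and *Rela*, *Relb* and *Nfkb1* were at their lowest of all libraries. The mean shares were 21.2% ± 1.31 and 24.3% ± 0.315 (SD, n = 3), a difference of 3.03 percentage points. The exact two-sided permutation p was 0.10, the smallest that 3 libraries against 3 can give, and 0.667 after adjustment over the 8 shares and ratios compared. No share or ratio could reach 0.05 in this test, so it cannot decide on this difference. The shares of *Rela* (35.3% ± 0.868 in control, 34.3% ± 1.74 in AclyM-KO), *Relb*, *Rel* and *Nfkb1* overlapped between the groups (exact permutation p of 0.30 to 0.60). When AclyM-KO replicate 2 was left out, the difference in share went from -0.999 to 0.00386 percentage points for *Rela* and from -1.41 to -2.59 for *Nfkb1*. For *Relb* it went from -0.459 to -0.223 and for *Rel* from -0.167 to -0.406 percentage points. Other libraries moved these differences too. They shrank for *Nfkb1* without AclyM-KO replicate 1 and for *Rel* without AclyM-KO replicate 3, and grew for *Relb* without control replicate 1. With the transcripts of each gene summed, the *Rela* share was lower in every AclyM-KO library than in any control library (exact permutation p = 0.10). The ratios of *Nfkbia*, *Nfkbiz* and *Tnfaip3* to *Rela*, the 3 that were compared, also overlapped. On the log2 scale, *Nfkbia* over *Rela* was -0.36 ± 0.0973 in control and -0.41 ± 0.115 in AclyM-KO, and *Nfkbiz* over *Rela* was -4.07 ± 0.105 and -3.88 ± 0.142 (SD, n = 3 per group, exact permutation p of 0.70 and 0.20). These differences, with AclyM-KO replicate 2 left out, went from -0.05 to -0.11 and from 0.19 to 0.11. That of *Nfkbia* over *Rela* turned slightly positive without control replicate 1 and without AclyM-KO replicate 1. *Tnfaip3* over *Rela* was -1.53 and -1.63 in AclyM-KO replicates 1 and 3 and -0.67 in replicate 2, beside -1.71 to -1.48 in control. Its difference between the groups was 0.31 with that library and 0.0068 without it.

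**Figure D4:**
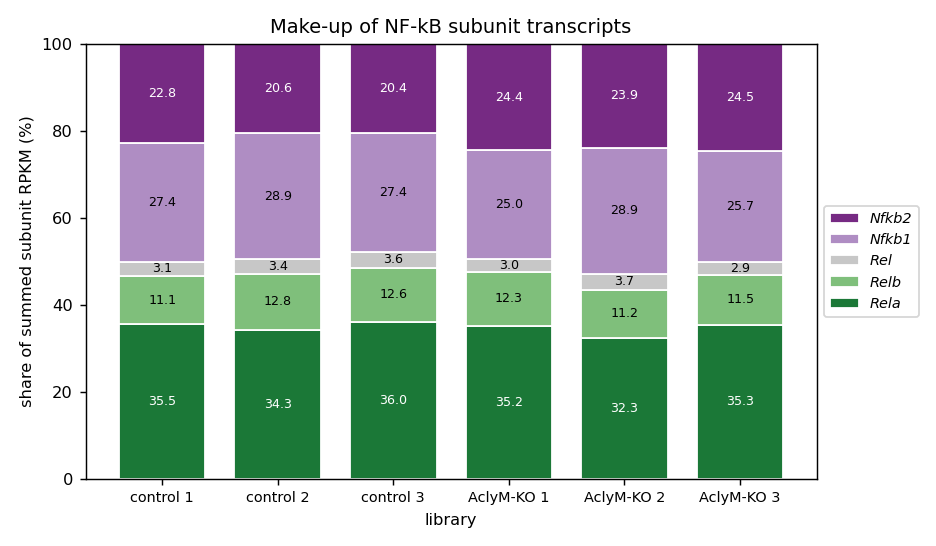
Share of each NF-κB subunit in the summed RPKM of the 5 subunits, in percent, in each library (stacked bars that add up to 100%). The *Nfkb2* share (top) is 20.4% to 22.8% in control and 23.9% to 24.5% in AclyM-KO libraries.

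The genes whose levels followed those of the members most closely over the 6 libraries are given as a description, since 6 libraries of 2 genotypes share depth and scaling. Among 8319 genes with a mean of at least 10 CPM, *Cnnm2*, *Grb2* and *Adra1a* were the most similar to *Nfkb1*, with a Pearson r of log2 CPM of 0.993, 0.990 and 0.989. For *Tnfaip3* they were *Tbca*, *Cops5* and *Cdc27*, at 0.993, 0.992 and 0.992, and the *Tnfaip3* pattern is that of AclyM-KO replicate 2 standing above the rest. None of these 6 genes passed the edgeR test (adjusted p of 0.0563 to 0.543).

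Around the members, 11 lists of pathway genes held 182 different genes, of which 172 were tested. Of these, 10 were higher and 12 lower in AclyM-KO, or 12.8%, close to the 12.3% of all genes tested. Among the genes that passed, the largest changes were a fall of *Nod1* and *Il1a* and a rise of *Klf4*, *Usp18*, *Ccl2* and *Dusp4*. The counts depend on single libraries: 8, 11 and 10 genes were called without control replicates 1, 2 and 3, and 34, 37 and 18 without AclyM-KO replicates 1, 2 and 3. The share of all tested genes called moved in the same way, to 5.15%, 5.69% and 5.41% without the control replicates and to 14.2%, 18.5% and 9.08% without the AclyM-KO replicates, beside 4.6%, 6.32%, 5.71%, 19.5%, 21.3% and 10.3% of the pathway genes in the same fits. Of the 22 genes, 8 (*Nod1*, *Tlr8*, *Dusp1*, *Dusp4*, *Zfp36l1*, *Bcl2l1*, *Cd83* and *Klf4*) passed under all 16 alternatives, and the other 14 missed the threshold under at least 1, though none changed direction. The lists share genes (*Tnf*, *Ccl2*, *Ccl3* and *Dusp1* are in more than one), so their counts are not independent.

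Upstream of the subunits, the receptors that feed NF-κB showed 2 lower and 1 higher gene of 18 tested. *Nod1*, a cytosolic sensor of bacterial cell wall fragments, was at 29.6, 23.8 and 22.1 CPM in control and at 14.0, 9.82 and 12.7 CPM in AclyM-KO, and fell by 1.07 on the log2 scale (SE 0.154). *Tlr8*, an endosomal receptor for RNA, fell by 0.38 (SE 0.0698), and *Cd40*, a receptor of the non-canonical pathway, rose by 0.61 (SE 0.176) from a low level of 3.91 to 4.11 CPM in control. *Cd40* missed the threshold in 8 of 16 alternatives, DESeq2, limma-voom and the fit without AclyM-KO replicate 2 (edgeR adjusted p = 0.0979) among them. As single libraries were left out, 2 to 5 receptor genes were lower, 5 of them without AclyM-KO replicate 1, and 0 to 1 higher. Of the 13 receptor adaptors, 0 passed in edgeR (2 at an unadjusted p under 0.05), 0 in DESeq2 and 2 in limma-voom. *Irak1*, the kinase that carries the signal from *Myd88*, was at 104 to 109 CPM in control and 113 to 131 CPM in AclyM-KO (edgeR adjusted p = 0.0917), and *Myd88* at 64.5 to 76.1 and 69.9 to 76.2 CPM. Without AclyM-KO replicate 2, 2 adaptors were higher, *Irak1* by 0.27 and *Tradd*, which links TNF receptors to the pathway, by 0.47. *Tradd* is named because it was called in that setting.

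Of the 14 IκB kinase (IKK) subunits and upstream kinases, 2 were lower and none higher, and the median log2 fold change was -0.12. *Ikbke*, an IKK-related kinase of the interferon and NF-κB pathways, was at 151, 148 and 139 CPM in control and at 125, 99.8 and 117 CPM in AclyM-KO, and fell by 0.37 on the log2 scale (SE 0.0863). *Map3k8*, the kinase Tpl2 that is held by the *Nfkb1* precursor, was at 25.2, 23.9 and 25.7 CPM in control and at 22.6, 16.8 and 15.4 CPM in AclyM-KO, and fell by 0.46 (SE 0.135, edgeR adjusted p = 0.048). Both genes were lower in all 3 AclyM-KO libraries than in any control library, but neither passed when any 1 control library was left out, and *Map3k8* missed the threshold in 7 of 16 alternatives in all. Of the 7 tested genes of other IκB proteins and proteins listed with them, *Nkiras2* fell by 0.25 (SE 0.0699) and the others did not pass. *Nkiras2* encodes a small GTPase-like protein that binds IκB and is itself no IκB. *Nkiras2* missed the threshold in 8 of 16 alternatives, among them DESeq2, total counts only and each fit without a control library.

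Among the relatives of the feedback inhibitors, the ubiquitin-editing list, partners and counterparts of A20, showed 2 lower and 1 higher of 17 tested. *Itch*, a ubiquitin ligase of the A20 complex, fell by 0.24 (SE 0.0648), and *Birc3*, a ubiquitin ligase that is itself a target of NF-κB, fell by 0.41 (SE 0.111), and neither passed with any 1 control library left out. *Itch* also did not pass with total counts only or without AclyM-KO replicate 3. *Usp18*, which removes the ubiquitin-like protein ISG15 and is induced by interferon, was at 7.37, 7.32 and 7.85 CPM in control and at 8.79, 22.03 and 12.2 CPM in AclyM-KO, and rose by 0.99 (SE 0.275). AclyM-KO replicate 2 was the highest of the 6, and without it the rise was 0.49 (SE 0.165, edgeR adjusted p = 0.0468). *Usp18* did not pass with any 1 control library left out, without AclyM-KO replicate 3 or with summed transcripts. Of 17 other brakes on TLR signaling, 2 were higher: *Dusp4* by 0.84 (SE 0.115) and *Dusp1* by 0.74 (SE 0.148), both phosphatases that switch off MAP kinases. Of 18 genes of the SOCS family and the STAT3 axis tested, *Il10ra*, a chain of the IL-10 receptor, fell by 0.55 (SE 0.152), from 195 to 215 CPM in control to 99.1 to 167 CPM in AclyM-KO. Without AclyM-KO replicate 2 its fall was 0.33, and it did not pass in DESeq2, with summed transcripts or with any 1 control library left out. The count of lower genes in this list ran from 0 to 5 as single libraries were left out. Of 17 regulators of mRNA decay, *Zfp36l1*, the closest relative of *Zfp36*, was at 218, 215 and 222 CPM in control and at 164, 126 and 170 CPM in AclyM-KO, and fell by 0.52 (SE 0.0987), while *Zfp36* had not passed. Without AclyM-KO replicate 2, 2 genes of this list were higher and 3 lower.

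**Figure D5:**
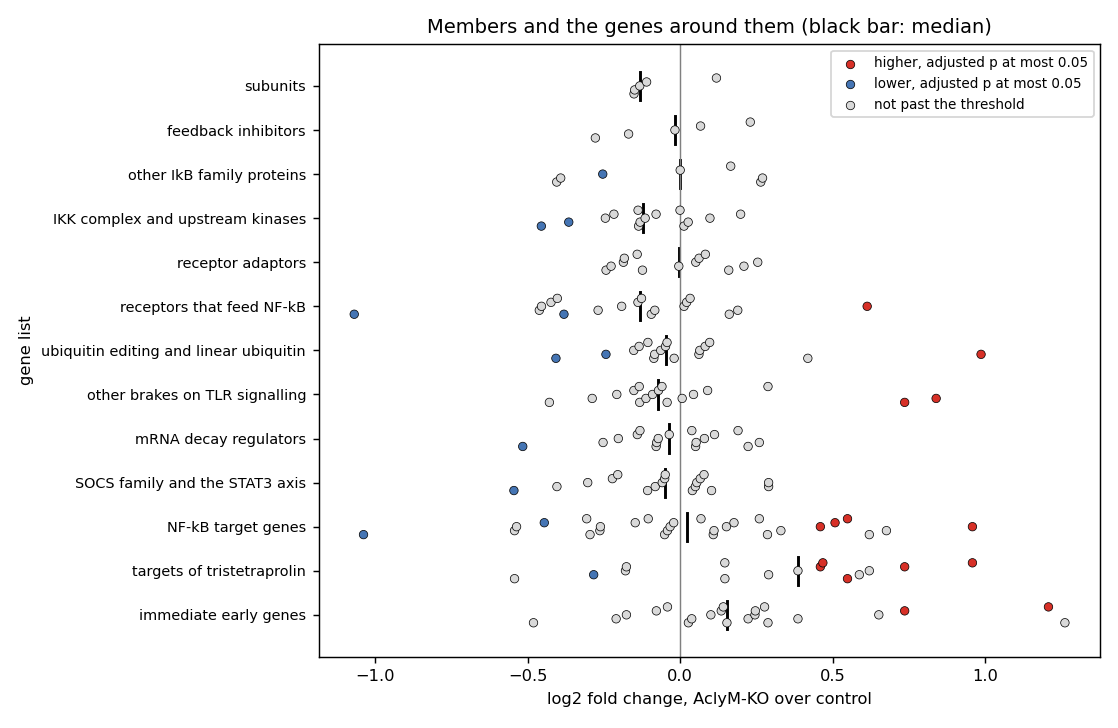
Log2 fold change, AclyM-KO over control, of each tested gene (points) in the members and in each pathway list (rows), with the median of the list as a black bar. Red and blue points passed the test, higher or lower. No subunit or feedback inhibitor is colored, and the tristetraprolin targets have the highest median (0.39).

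Downstream, 4 of the 28 NF-κB target genes tested were higher and 2 lower, and the list had a median of 0.02 on the log2 scale. *Ccl2*, a chemokine that attracts monocytes, was at 40.6, 48.4 and 47.8 CPM in control and at 67.0, 131 and 64.0 CPM in AclyM-KO, and rose by 0.96 (SE 0.226). The rise without AclyM-KO replicate 2 was 0.52 (SE 0.0788, edgeR adjusted p = 0.000116), and *Ccl2* did not pass in DESeq2 or with any 1 control library left out. The cytokine gene *Tnf* was at 11.2, 12.9 and 12.7 CPM in control and at 14.4, 21.4 and 17.4 CPM in AclyM-KO, and rose by 0.55 (SE 0.151). In both genes every AclyM-KO library was above every control library and replicate 2 was the highest. Without replicate 2, *Tnf* was at 0.37 (SE 0.129) and did not pass (edgeR adjusted p = 0.0516), nor did it without AclyM-KO replicate 3 or with any 1 control library left out. *Ccl3*, another chemokine, rose by 0.46 (SE 0.106), and *Bcl2l1*, which encodes the survival protein Bcl-xL, by 0.51 (SE 0.0885). Against these, *Il1a*, a cytokine of the IL-1 family, fell by 1.04 (SE 0.219), from 3.79 to 5.09 CPM in control to 1.89 to 2.27 CPM in AclyM-KO, and *Cd83*, a surface protein of activated antigen-presenting cells, fell by 0.45 (SE 0.0806). *Ccl3* did not pass without control replicate 1 or 3, nor *Il1a* without control replicate 1, and without AclyM-KO replicate 2 the list had 4 higher and 4 lower genes. *Il1b*, *Il6*, *Il12b*, *Cxcl1*, *Ptgs2* and *Nos2* had too few reads to be tested in these unstimulated cells.

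Of 15 tested mRNAs from a list of tristetraprolin targets, 5 were higher and 1 lower, where 6.7% of all tested genes were higher and 5.65% lower, and the list's median was 0.39 on the log2 scale. Whether the list differs from other genes was not tested. The list was written with earlier results of these data known, and 3 of its higher genes (*Tnf*, *Ccl2* and *Ccl3*) are also counted among the NF-κB targets. Of the 5, *Tnf*, *Ccl2*, *Ccl3* and *Dusp1* are named above, and *Plaur*, the urokinase receptor, rose by 0.47 (SE 0.0957) and did not pass without control replicate 1. The exception, *Cd274*, which encodes the checkpoint ligand PD-L1, fell by 0.28 (SE 0.0724) and did not pass with total counts only, without AclyM-KO replicate 3 or with any 1 control library left out. When 1 library at a time was omitted, 1 to 6 of the list were higher and 0 to 1 lower. Among 21 immediate early genes, *Klf4*, a transcription factor of monocyte differentiation, was at 3.55, 5.83 and 3.70 CPM in control and at 9.49, 10.8 and 10.2 CPM in AclyM-KO. It rose by 1.21 (SE 0.192), *Dusp1* was the other gene higher, and none was lower. Without AclyM-KO replicate 2, 6 immediate early genes were higher. Of the tested genes around the members, 12.8% thus passed the same test in which no member did, close to the 12.3% of all tested genes. Whether the members' changes differ from those of these lists was not tested.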

How the data were processed

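Counts were taken from the table that the authors deposited. The authors prepared strand-specific mRNA libraries (KAPA), aligned reads to mm10 with STAR 2.5.2b (CASAVA 1.8.2 is also named in the submitters' processing notes), kept alignments with a mapping quality above 15 and counted reads per RefSeq transcript with HOMER2, without normalization. A read on a shared exon can be counted in several transcripts. The 6 other columns of the table match no sample here and were not used. Symbols came from RefSeq (35440 of 35745 transcripts) and GENCODE M21 (188), and the transcript with the highest total represented each gene. In R 4.3.3, edgeR 4.0.16 (TMM, filterByExpr, quasi-likelihood test, genotype as the one factor) gave adjusted p-values over 11470 genes by the Benjamini-Hochberg method, with a threshold of 0.05. The coefficient of variation that edgeR estimated between libraries of a group was 8.9%. CPM used TMM-normalized library sizes, and RPKM the length of the matched GENCODE M21 transcript. Shares and ratios were compared by exact two-sided permutation. Intervals and SEs describe the spread between 6 libraries.

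Alternatives were DESeq2 1.42.0, RLE factors, total counts only, limma-voom (limma 3.58.1) with sample weights, other filters, the replicate number as a block, each library left out, AclyM-KO replicate 2 thinned, and all or summed transcripts. The edgeR test was tried on simulated counts. The members and lists were chosen with earlier results of these data known. The text names all members, *Acly*, the genes of each list past the threshold (up to 6 per list and direction, or the 2 of highest mean CPM where none passed), and the 3 genes most correlated with the subunit and the inhibitor of smallest p. The stimulated macrophages of the study were not analysed here.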

Additional observations from a re-analysis of the deposited data

How the results depend on the processing

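No member passed the threshold under 15 of the 16 alternatives. Leaving out 1 library gave 0 to 1 members called, the 1 being *Nfkb2* without AclyM-KO replicate 2. The sign turned for *Rela* (-0.187 to 0.0182), *Socs3* (-0.431 to 0.0116) and *Zfp36* (-0.103 to 0.0612) as libraries were left out, and for *Zfp36* also with total counts only (0.0168) and limma-voom (0.0519). The other 7 members kept their direction under all 16, though without 1 library *Relb* ran from -0.23 to -0.01, *Nfkbia* from -0.23 to -0.09, *Nfkbiz* from 0.0042 to 0.15 and *Tnfaip3* from 0.02 to 0.34. Over all genes, 1416 calls became 2187 with limma-voom and 598 to 2136 without 1 library. With all transcripts in the fit, 2446 of 18933 transcripts were called, or 12.9%. The 22 calls in the pathway lists became 38 with limma-voom and 8 to 37 without 1 library. With the replicate block, 1583 genes, 34 pathway genes and 0 members were called. Pairing cannot change the *Nfkb2* share difference of 3.03 points, and its exact sign-flip p was 0.25, the smallest that 3 pairs can give. Deviations from the group mean correlated at 0.09, 0.114 and -0.0466 between same-numbered libraries, and at -0.132 to 0.0699 between the other pairs. With 3 libraries per group, these values cannot decide whether the number marks a pair. The cause of these shifts was not tested. *Socs3* and *Nfkbiz*, with 73 to 231 counts per library, are the least precise members.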
